A study of Mus musculus with 2 samples.

Results

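The genes described are the transcriptional repressors Gfi1 and Gfi1b and the core of the histone demethylase complex that they recruit, which are Kdm1a (the gene of LSD1) and the CoREST scaffold genes Rcor1, Rcor2 and Rcor3. They were chosen by name and found by their mouse gene identifiers, which gave 6 of the 43346 genes in the tables and 38 of their transcripts. The cells were G1E-ER4, a male mouse erythroid line that lacks a working Gata1 gene and carries a Gata1 fused to the ligand-binding domain of the estrogen receptor, so that estradiol switches the fusion protein on. Polyadenylated RNA was sequenced from 2 libraries, called replicates 1 and 2, of 1 group kept in 10 nM 17beta-estradiol for 7 h. Both libraries carry the fusion and the agent, an untreated group was not analysed here, and no value below is a change caused by estradiol. Both libraries cite the same biological sample record, so their spread may be technical. The libraries held 59610969 and 44689405 expected counts, which are the fragments estimated to come from each gene. G1E-ER4 is a subline of 1 immortalized line, which limits how far its values speak for erythroid precursors.

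GFI1 and GFI1B are DNA-binding proteins with zinc fingers at the carboxyl end and a short SNAG domain at the amino end. The SNAG domain resembles the tail of histone H3 and occupies the active site of LSD1, which removes methyl groups from lysine 4 of histone H3 and is held on chromatin through a CoREST protein together with histone deacetylases. In blood formation GFI1 is best known in stem cells, lymphoid cells and neutrophil precursors, and GFI1B in red cell and platelet precursors, and each can repress the gene of the other.

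The start of the coding sequence shows what the SNAG factors share. Below are the first 60 coding bases of Gfi1 and of Gfi1b, which encode the SNAG domain, read from the annotated transcripts of GENCODE M21 on GRCm38 (sense strand, both genes on the minus strand), with the bases that differ in capitals.
Gfi1: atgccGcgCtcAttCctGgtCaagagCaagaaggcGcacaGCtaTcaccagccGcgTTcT
Gfi1b: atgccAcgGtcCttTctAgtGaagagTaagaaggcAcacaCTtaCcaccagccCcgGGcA
They differ at 15 of 60 bases, and 18 of 20 codons encode the same residue. Along the coding sequences, Gfi1-201 and Gfi1b-201 were identical at 73.5% of 984 aligned bases, and the longest run shared by the transcripts was 27 bases. Each encodes 6 zinc fingers by a pattern search of the translated sequence.

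Gfi1b and Kdm1a have alternative segments inside the coding sequence, and their transcript levels turn on these. Each line runs from 20 bases before to 20 bases after the segment, with the segment in capitals, in the sense of the minus-strand gene on GRCm38. The 99-base segment of Gfi1b lies at chr2:28611585-28611683, at the 5' side of exon 6 of Gfi1b-204. The 60-base exon of Kdm1a is exon 3 of Kdm1a-202, at chr4:136582040-136582099. The 12-base exon of Kdm1a, known from the neuronal form of LSD1, lies at chr4:136563438-136563449.
Gfi1b 99-base segment: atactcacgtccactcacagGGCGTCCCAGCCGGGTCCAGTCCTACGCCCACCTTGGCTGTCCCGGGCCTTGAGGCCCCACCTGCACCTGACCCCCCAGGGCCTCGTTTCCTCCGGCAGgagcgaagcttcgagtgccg
Kdm1a 60-base exon: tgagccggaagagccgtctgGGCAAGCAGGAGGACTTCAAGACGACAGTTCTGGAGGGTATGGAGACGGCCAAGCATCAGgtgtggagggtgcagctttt
Kdm1a 12-base exon: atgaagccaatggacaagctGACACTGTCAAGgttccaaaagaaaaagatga
All 3 segments have a length divisible by 3 and hold no stop codon in frame, so they add 33, 20 and 4 codons. The 33 codons of Gfi1b are codons 217 to 249 of Gfi1b-204. They fall between the second zinc finger, which ends at residue 214, and the third, which starts at residue 255.

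Gfi1b stood far above the other members and Gfi1 was close to 0. The level of a gene is given in TPM, the abundance of its transcripts as a part of all transcripts in the library, which is scaled by length so that genes can be compared. Gfi1b (chr2:28609450-28621982, minus strand) had a gene TPM of 978 in replicate 1 and of 707 in replicate 2, which gave 842 ± 191 (mean ± SD, n = 2). In bulk RNA, fewer cells with a transcript and less of it per cell cannot be told apart, here or below. Gfi1b ranked 128 and 199 among 21474 protein-coding genes in the 2 libraries. Gfi1 (chr5:107716657-107726036, minus strand) had a gene TPM of 0.33 and 0.31, a mean of 0.32 ± 0.0141 (SD, n = 2). That rests on 15 and 12 expected counts, with exact 95% Poisson intervals of 8.40 to 24.7 and 6.201 to 20.96 that cover counting error only. The authors' own intervals for Gfi1 were 0.153 to 0.569 TPM and 0.145 to 0.625 TPM, and both stay below 1 TPM. The Gfi1b level was 2962 and 2280 times the Gfi1 level, 2621 ± 482 (SD, n = 2). That ratio depends on a few counts of Gfi1, and it was 638 where 1 TPM was added to both genes.

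**Figure D1:**
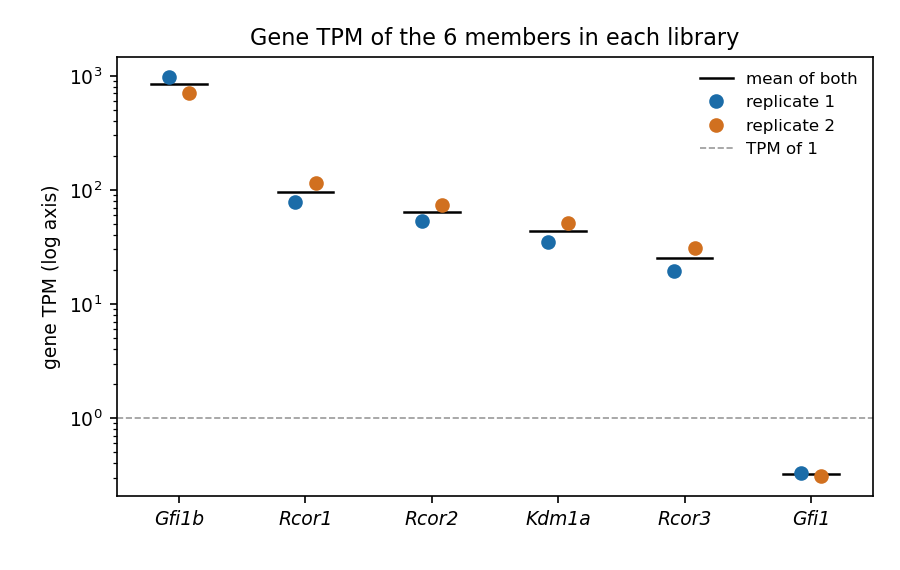
Gene TPM of each member on a log axis, with 1 point for each library, a bar at their mean and a dashed line at 1 TPM. Gfi1b is the highest at 978 and 707 TPM, the CoREST genes and Kdm1a lie between 19.6 and 114, and Gfi1 lies at 0.33 and 0.31, below the line.

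The CoREST scaffold genes Rcor1, Rcor2 and Rcor3 were all present. Whether their 3 proteins act alike on LSD1 was not tested. Rcor1 (chr12:111039351-111115901, plus strand) had a gene TPM of 77.8 in replicate 1 and of 114 in replicate 2, which gave 95.8 ± 25.5 (mean ± SD, n = 2). Rcor2 (chr19:7267325-7275225, plus strand) had 53.4 and 74.4 TPM, a mean of 63.9 ± 14.8. Rcor3 (chr1:192098546-192138062, minus strand) had 19.6 and 31.0 TPM, a mean of 25.3 ± 8.08. By TPM the 3 scaffolds nearly kept their proportions although each was higher in replicate 2. The length by which the Rcor1 level was scaled was 4261 bases in replicate 1 and 4916 in replicate 2. The proportions therefore depend also on how reads were assigned to its transcripts. Rcor1 held 51.6% and 52.0% of their summed TPM (51.8% ± 0.242), Rcor2 held 35.4% and 33.9% (34.7% ± 1.06) and Rcor3 held 13.0% and 14.1% (13.6% ± 0.819; SD, n = 2).

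Kdm1a (chr4:136550540-136602723, minus strand) encodes the catalytic subunit, and its level was 34.7 TPM in replicate 1 and 51.6 TPM in replicate 2, with a mean of 43.2 ± 11.96 (SD, n = 2). The scaffolds summed to 151 and 219 TPM, so the Kdm1a level was 0.230 and 0.236 of the summed scaffold level (0.233 ± 0.00360, SD, n = 2). Kdm1b, which encodes the related demethylase LSD2, had 2.75 and 2.70 TPM, and Kdm1a was 12.6 and 19.1 times that level. Gfi1b was 28.2 and 13.7 times the Kdm1a level.

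The members followed 1 order in both libraries, from Gfi1b through Rcor1, Rcor2, Kdm1a and Rcor3 to Gfi1. The values of neighbours in this order did not overlap between any pair, but the mean ± SD of Rcor1 overlapped that of Rcor2, that of Rcor2 overlapped that of Kdm1a, and that of Kdm1a overlapped that of Rcor3. By the spread of each gene over the libraries, those 3 neighbouring pairs were not separated. Within each library the ratio of neighbours was above 1 by more than its own spread: Rcor1 was 1.46 and 1.53 times Rcor2 (1.49 ± 0.0527, SD, n = 2), Rcor2 was 1.54 and 1.44 times Kdm1a (1.49 ± 0.0685) and Kdm1a was 1.78 and 1.67 times Rcor3 (1.72 ± 0.0775). With 2 libraries the smallest p of a two-sided exact sign-flip test is 0.5, and no such test was run. Detection, set at 1 TPM or more in each library, was met by 5 of 6 members (83.3%) and by 8219 of 21474 protein-coding genes (38.3%). The median level was 53.5 TPM over all 6 members, with the undetected Gfi1 among them, and 0.03 TPM over all protein-coding genes. Over only the protein-coding genes detected it was 20.8 TPM.

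Genes that overlap the members had few or no counts. Kdm1a shares 4241 bases with Luzp1 on the opposite strand, which had 0 counts in both libraries, and 489 bases with the pseudogene Gm12987, which had 1 count in each. The genes overlapping Gfi1 and Rcor3 that the tables held had at most 1 count. The 2 annotated genes that overlap Rcor1, Gm46379 and Gm48632, were not analysed here. Whether the counting used strand was not given in the sources used here.

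Most Gfi1b RNA was assigned to the form with the 99-base segment between the zinc fingers. Gfi1b-204, which holds the segment (coding sequence of 1089 bases, 363 residues), had 875 TPM in replicate 1 and 637 TPM in replicate 2. Gfi1b-201, which lacks it (990 bases, 330 residues), had 103 and 69.8 TPM. The transcript with the segment thus took 89.5% and 90.1% of the TPM of both forms, a mean of 89.8% ± 0.445 (SD, n = 2), and the 2 libraries were nearly equal in this share although the gene level was higher in replicate 1. The transcripts differ also by 37 bases at the 5' end and 5 at the 3' end, so reads over the ends add to the assignment. The other 2 annotated transcripts of Gfi1b had 1.01 expected counts at most.

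Kdm1a was mainly of the form with the 60-base exon, an exon known from mammalian LSD1. Kdm1a-202 with the exon had 27.1 TPM in replicate 1 and 44.2 TPM in replicate 2. Kdm1a-203 without it had 7.42 and 7.19 TPM. The form without the exon was therefore at almost the same level in both libraries, and the gene's higher level in replicate 2 lay in the form with it. The share with the exon was 78.5% and 86%, a mean of 82.3% ± 5.29 (SD, n = 2). Kdm1a-208, which carries the 12-base exon, had 0 expected counts in both libraries. A limit of 3 counts corresponds to 0.0732 and 0.103 TPM of this transcript, if reads over its whole length could be assigned to it. Its other exons lie within exons of Kdm1a-202, so only reads over the 12-base exon or its junctions set it apart. The limit for the exon is therefore higher, and how much higher was not measured. The annotated model of Kdm1a-208 is a fragment of 965 bases.

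**Figure D2:**
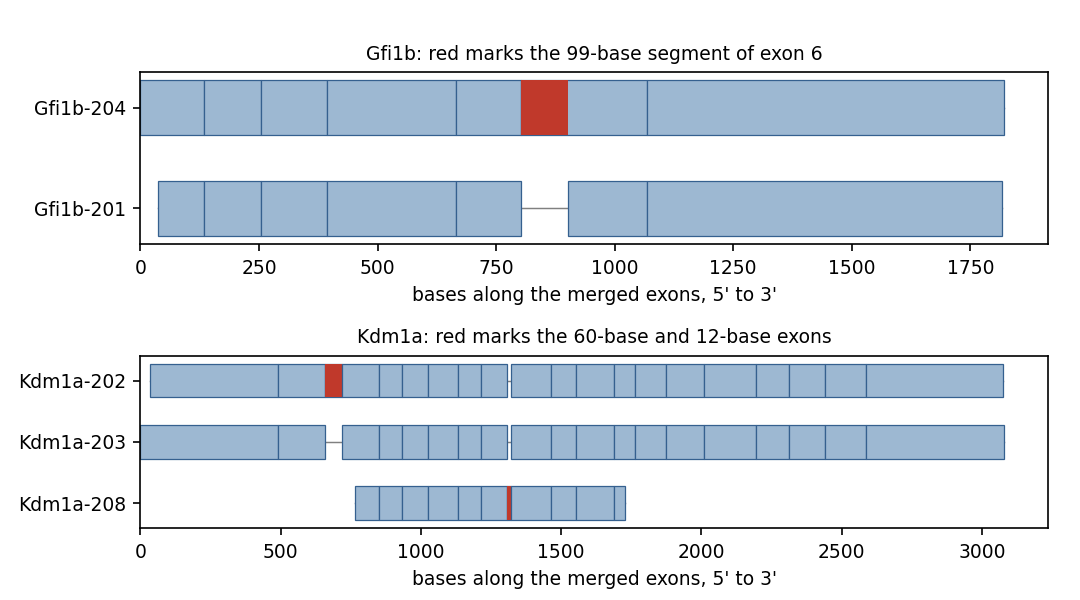
Exons of the Gfi1b and Kdm1a transcripts drawn to scale along the merged exons in bases, 5' to 3', with the alternative segments in red. Gfi1b-204 holds the 99-base segment and had 875 and 637 TPM, against 103 and 69.8 TPM for Gfi1b-201. Kdm1a-202 holds the 60-base exon, and Kdm1a-208 with the 12-base exon had 0 counts.

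The scaffolds were each divided over several transcripts. Rcor1-201 (5684 bases) took 57.3% of the Rcor1 TPM in replicate 1 and 79.0% in replicate 2, and Rcor1-202 (2720 bases) took 42.8% and 21.1%. These transcripts encode 1440 and 1146 coding bases. The level of Rcor1-201 was 44.5 and 89.9 TPM and that of Rcor1-202 was 33.3 and 24.0 TPM, so the 2 forms moved in opposite directions between the libraries. Rcor2-202 (coding sequence of 1437 bases) took 60.03% and 53.5% of the Rcor2 TPM, and Rcor2-201 (1569 bases) took 32.8% and 43.1%. By expected counts Rcor2-202 led in replicate 1 (3016 and 2350 counts) and Rcor2-201 led in replicate 2 (3006 against 2628 counts), so in replicate 2 the leading form of Rcor2 differed between the scales. The deposited length of Rcor2-201 was 2801 bases and that in GENCODE M21 is 2823, so the models are not identical.

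Rcor3 had 14 annotated transcripts, the most of the members. Rcor3-207, which encodes the longest form (coding sequence of 1653 bases), took 62.8% and 53.9% of the Rcor3 TPM. Rcor3-208, a short model of 345 bases, took 16.6% and 9.65%. Rcor3-209, which is annotated as non-coding, had 0 counts in replicate 1 and 72.6 in replicate 2, where it took 19.8% of the TPM. Rcor3-205, annotated as a target of nonsense-mediated decay, went the other way, with 56.5 counts in replicate 1 and 0 in replicate 2. Coding transcripts together took 85.4% and 68.6%. The Rcor3 gene had 1414 and 1382 counts, fewer than each other detected member. Gfi1 was too low for its forms to be told apart, with Gfi1-204 at 6.53 and 4.34 expected counts and Gfi1-201 at 5.44 and 7.66.

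**Figure D3:**
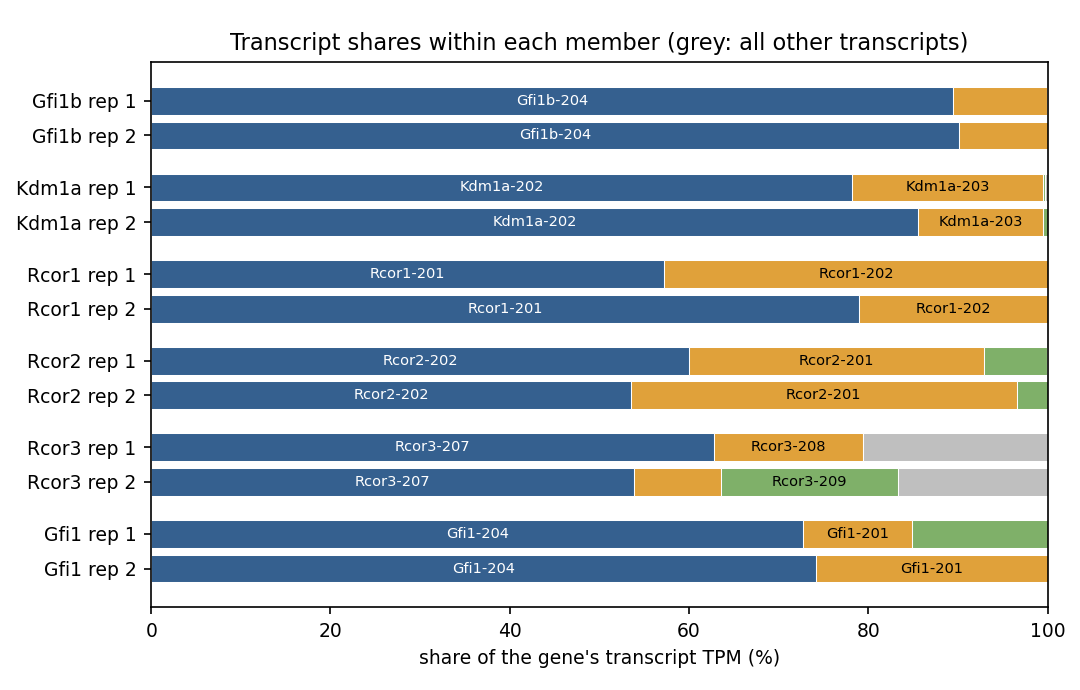
Share of each member's transcript TPM in percent, with 1 bar for each library, colours for the 3 transcripts of highest mean level and grey for all others. Gfi1b-204 takes 89.5% and 90.1%, while Rcor1-201 takes 57.3% in replicate 1 and 79.0% in replicate 2.

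The libraries differed from each other, and the members were compared on expected counts scaled by TMM, a normalization that equates the bulk of the genes. On the log2 scale, replicate 2 stood above replicate 1 by 0.67 for Kdm1a (5029 and 5239 counts), 0.85 for Rcor1 (16795 and 19788), 0.67 for Rcor2 (5421 and 5661) and 0.58 for Rcor3 (1414 and 1382). The same log2 ratio was -0.37 for Gfi1b (81788 and 41564 counts) and 0.30 for Gfi1 (15 and 12). Kdm1a and the scaffolds were thus higher in replicate 2 and Gfi1b was higher in replicate 1. Gfi1 was -0.09 by TPM, and its direction flips with the scale, while the other 5 members kept theirs by TPM and under each scaling tried. The median log2 ratio was 0.62 over the members and -0.03 over all 11285 genes tested.

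An exact two-sided binomial test with Benjamini-Hochberg adjustment over all genes tested compared the libraries, not conditions, with counting noise as its only error. No member passed an adjusted p of 0.05 together with a 2-fold difference (0 of 6), against 11.1% of all genes tested. With no fold minimum 5 of 6 members passed, against 67.5% of genes. With a 1.5-fold minimum 3 of 6 passed, Kdm1a, Rcor1 and Rcor2, against 27.4%. The adjusted p of this binomial test was 1.34e-120 for Kdm1a, 2.05e-131 for Rcor2, 2.48e-25 for Rcor3 and 0.795 for Gfi1, and it was below the smallest value the software holds for Gfi1b and Rcor1. When the spread of the pair was added, by the edgeR exact test with a common coefficient of variation of 0.288, 0 of 6 members passed and 0 had an unadjusted p under 0.05, against 0.922% of genes passing. That coefficient was estimated from the same 2 libraries, so the differences tested enter their own error and the count of 0 says little. The differences of the members between the libraries were larger than counting noise in 5 of 6 cases.

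**Figure D4:**
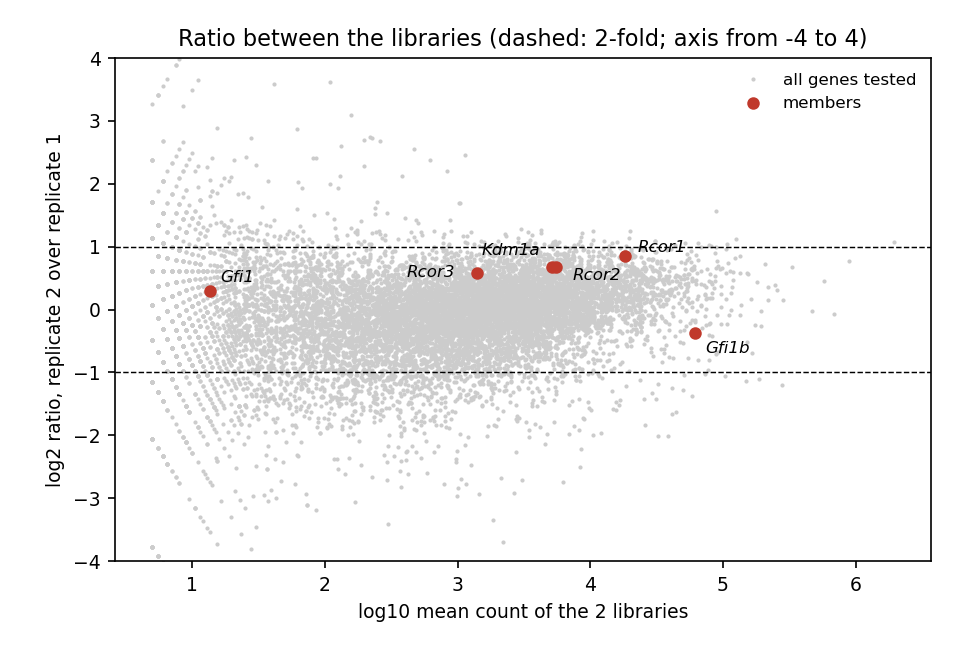
Log2 ratio of replicate 2 over replicate 1 against the log10 mean count, for all 11285 genes tested (grey) and the 6 members (red), with dashed lines at a 2-fold difference. All members lie between the lines, from -0.37 for Gfi1b to 0.85 for Rcor1, and 56 genes lie outside the plotted range of -4 to 4.

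Markers were measured beside the members. Of 10 erythroid markers 9 were detected, among them the globin genes Hbb-bs (11770 and 6656 TPM) and Hba-a1 (6573 and 3361 TPM), while Slc4a1, a membrane gene of later red cells, had 0.52 and 0.36 TPM. The summed TPM of the erythroid list was 21000 in replicate 1 and 12660 in replicate 2, and the globin genes held most of it. By TPM 9 of the 10 markers were lower in replicate 2 like Gfi1b, Ank1 only slightly (200 and 198 TPM). Klf1 was higher there (984 and 1394 TPM). The part of these markers in the Gfi1b difference was not tested. Of 10 megakaryocyte markers 3 were detected, with summed levels of 91.4 and 97.7 TPM, and Vwf, Ppbp, Gp1bb and Gp6 were at 0 in both libraries. No granulocyte marker of 10 was detected (summed TPM 0.21 and 1.47), and S100a8, S100a9, Ly6g and Ngp were at 0. The granulocyte genes Mpo, Elane and Cebpe passed the 2-fold call at 0 and 24, 1 and 10, and 2 and 15 counts. Of 8 lymphoid markers 1 was detected, Lck at 1.33 TPM (summed TPM 1.69 and 1.88), and Cd3e, Il7r and Rag1 were among those at 0.

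Other genes of LSD1-CoREST complexes were nearly all present, with 11 of 12 detected and a median of 42.9 TPM. The highest were Hmg20b, an HMG-box subunit (235 and 331 TPM), Gse1 (225 and 294 TPM), Ctbp1, a corepressor (265 and 249 TPM), and Rreb1, a zinc finger protein (110 and 153 TPM). Each of these 4 exceeded Kdm1a and, in its mean, Rcor1. Hdac1, which encodes a deacetylase of the complex, had 61.0 TPM in replicate 1 and 28.4 TPM in replicate 2, and it was the only gene of the 12 that passed the 2-fold call (log2 ratio -1.04), a share near the 11.1% of all genes tested. Hdac2, the other deacetylase gene, had 44.0 and 48.5 TPM. Zmym2 was below 1 TPM at 0.74 and 0.53.

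**Figure D5:**
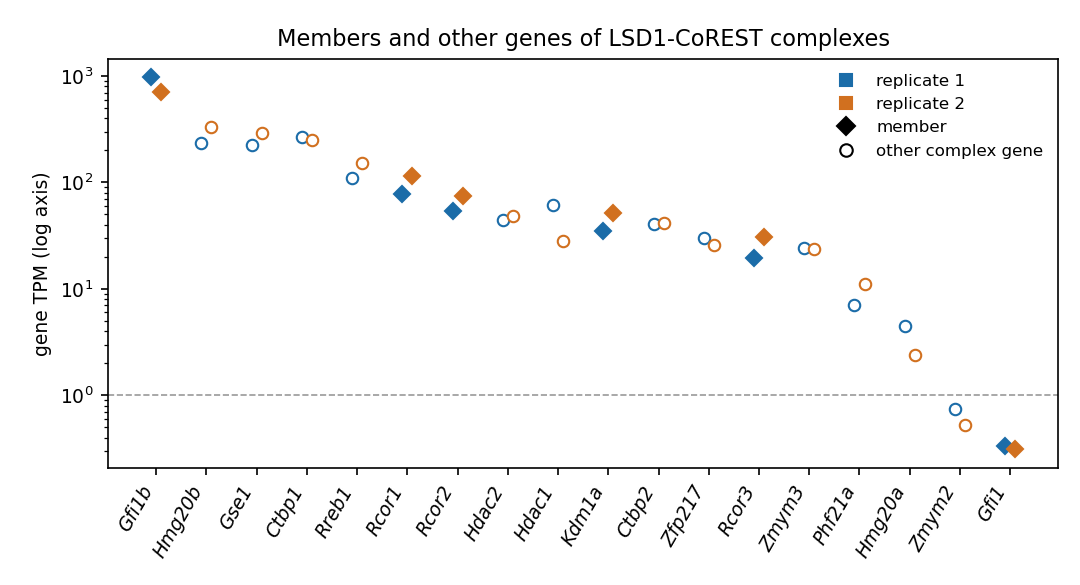
Gene TPM on a log axis of the 6 members (filled diamonds) and of 12 other genes of LSD1-CoREST complexes (open circles) in each library, ordered by mean, with a dashed line at 1 TPM. Gfi1b is the highest at 978 and 707 TPM, Hdac1 shows 61.0 and 28.4 TPM, and Zmym2 and Gfi1 lie below the line.

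Gfi1b was the only detected gene among Gfi1, Gfi1b and the other SNAG-domain genes listed. None of 10 other genes with a SNAG domain (the Snai, Scrt, Insm and Ovol families) was detected, 6 had 0 counts in both libraries, and the highest, Scrt1, had a mean of 0.185 TPM. Of 6 other factors known to recruit LSD1, 5 were detected: Tal1, a bHLH factor of the erythroid program (148 and 174 TPM), Bcl11a, a repressor of globin genes (98.98 and 108 TPM), Zeb2 (6.26 and 5.56 TPM), Zeb1 (3.74 and 2.16 TPM) and Prdm1; Sall4 had 0 counts. With a minimum of 5 TPM, 3 of these 6 were detected. A further list held 5 genes placed on or beside LSD1, not all of which act on LSD1 itself. Among them was Kdm1b, the gene of the related demethylase LSD2. All 5 were detected at 1 TPM and 3 at 5 TPM. The highest were the deubiquitinase gene Usp7 (39.6 and 49.0 TPM), Glyr1 (17.3 and 13.8 TPM) and the ubiquitin ligase gene Jade2 (7.00 and 6.85 TPM).

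All 10 genes known to act upstream of Gfi1 or Gfi1b were detected, with a median of 143 TPM. Lmo2, which bridges GATA and TAL1 proteins, had 898 and 1434 TPM, and Ldb1, its partner, had 883 and 1111 TPM. Gata1 had 1251 and 872 TPM, and its reads include those of the Gata1 fusion, which cannot be told apart here from the endogenous gene. Runx1 had 201 and 294 TPM. Nfyc, a subunit of the CCAAT-binding factor NF-Y, was the only gene of this list that passed the 2-fold call between the libraries (63.0 and 29.3 TPM, log2 ratio -1.02), and 1 of 10 is near the 11.1% of all genes tested.

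The upstream window of Gfi1b was searched for the binding motifs of these regulators. It is printed as the factors GATA1, NF-Y and GFI1B itself are known to act on this promoter. The 250 bases before the start, chr2:28621983-28622232 on the minus strand, come from RefSeq on GRCm38.p6, with the motif matches in capitals.
Gfi1b promoter: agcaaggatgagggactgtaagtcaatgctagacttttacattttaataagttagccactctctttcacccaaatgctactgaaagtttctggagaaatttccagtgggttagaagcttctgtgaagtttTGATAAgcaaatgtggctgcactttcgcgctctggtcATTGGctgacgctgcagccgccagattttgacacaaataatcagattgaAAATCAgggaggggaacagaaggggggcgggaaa
All 6 member symbols matched in that table, Gfi1 with 2 windows. The motifs searched on both strands were TGATAA and AGATAA for GATA factors, AAATCA for GFI1 proteins and CCAAT for NF-Y, and no match overlapped another. In Gfi1b, TGATAA starts at -120 from the transcript start, CCAAT at -83 (as ATTGG) and AAATCA at -34. Among 32851 windows of this length TGATAA was found in 7.94%, AGATAA in 9.99%, AAATCA in 12.4% and CCAAT in 33.8%. Of the members, Gfi1b alone held TGATAA and AAATCA, Kdm1a held CCAAT at -135 and Rcor1 held it at -111, and Gfi1, Rcor2 and Rcor3 held none of the 4. GC content of the windows was 44.4% for Gfi1b, 59.2% for Kdm1a, 70.4% for Rcor1, 67.6% for Rcor2 and 82.8% for Rcor3, against a median of 52.4% over all windows.

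Of 20 genes known as targets of GFI1 or GFI1B, 10 were detected, with a median of 2.26 TPM. Of all 21474 protein-coding genes 8219 were detected (38.3%), with a median of 0.03 TPM, so the targets were not low against that background. The highest targets were Myc (594 and 640 TPM) and the transcription factor gene Gata2 (370 and 536 TPM). They were followed by the cell cycle inhibitor gene Cdkn1a (116 and 96.7 TPM) and the survival gene Bcl2l1 (75.4 and 74.8 TPM). Among the genes not detected, Id2 had 0 counts in both libraries and Elane, a neutrophil protease gene, had 1 and 10 counts. Elane was the only one past the 2-fold call of the 14 targets with enough counts to be tested, against 11.1% of all genes tested. These are levels beside a high Gfi1b, and no comparison with cells without Gfi1b was analysed here.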

How the data were processed

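Expected counts, TPM, FPKM and percent shares of transcripts were deposited by the authors for genes and transcripts of each library, with the bounds of an interval for each TPM. Per the notes deposited with the files, paired-end reads were aligned to the transcriptome of mm10 with GENCODE M4; the sources used here name neither the aligner nor the quantifier. FPKM, per the file headers, and posterior mean values served only as alternatives. Gene and transcript structure came from GENCODE M21 on GRCm38, the same assembly with a later annotation (42462 of 43346 gene identifiers matched). Transcript shares were recomputed from TPM. The rule for named genes took all 6 members, and from each gene list the 4 of highest mean TPM and any called. The members and lists were chosen with earlier results of these data known. Genes with at least 10 counts over both libraries were tested on rounded expected counts. The exact binomial test was run against TMM-scaled library sizes (edgeR 4.0.16), with DESeq2 1.42.0 size factors as an alternative. It was checked on simulated data that held counting noise only, which is what the test assumes. That check does not show that the test suits the spread of this pair. A prior count of 0.5 was used for log2 ratios. No sample was left out, and some marker genes are not reported here.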

Additional observations from a re-analysis of the deposited data

How the results depend on the processing

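Of 151 alternative values, 129 were labelled as unchanged. For levels, ratios and shares this meant a size within the spread of the libraries, and for a count a size within 1.5 times. For log2 ratios between the libraries it meant only the same direction and the same call, and their size was not checked. Of the 129 values, 34 are those of a single library. They lie within 1 SD of the mean of 2 by construction and say nothing about stability. The level of Gfi1b over Gfi1 was 2621 by TPM, 4458 by expected counts not scaled by length and 638 with a pseudocount of 1 TPM. Kdm1a over the summed Rcor level was 0.233 by TPM and 0.204 by expected counts. The Rcor1 share was 51.8% by TPM, 51.5% by posterior mean TPM, 51.5% with a pseudocount of 1 TPM and 72.4% by expected counts. The Gfi1b share with the 99-base segment was 89.8% by TPM and 90.6% by expected counts. Without a fold minimum 5 of 6 members and 7614 of 11285 genes tested (67.5%) were called between the libraries. With a 1.5-fold minimum 3 of 6 members and 3094 genes (27.4%) were called, against 0 members and 1254 genes (11.1%) at 2-fold. The settings for the 2 segment shares and for detection in the gene lists were chosen after seeing the data. The edgeR exact test with a common dispersion called 104 genes (0.922%). With a minimum of 5 TPM, detection fell from 5 to 3 genes in the list of LSD1 recruiters. It fell from 5 to 3 in that of genes on or beside LSD1 and from 1 to 0 in the lymphoid list. The log2 ratio of Gfi1 between the libraries was 0.30 by counts and -0.09 by TPM. Expected counts grow with transcript length and TPM does not; for the other settings the cause was not tested. Depth limits Gfi1, with 15 and 12 counts, most. No paired analysis was possible because there is 1 group.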
